A study of Mus musculus with 8 samples.

Results

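The chemokine receptor genes Cxcr4, Ackr3, Ccr2, Cx3cr1, Ccr1, Ccr9, Cxcr2 and Cxcr3 were followed by gene symbol in bulk RNA-seq of cultured mouse blood progenitors. They are 8 of the 48709 gene identifiers in the count files. The libraries fall into 2 groups, 4 labelled Malonyl-CoA and 4 labelled Control, with replicate numbers 1, 3, 4 and 5 in each. The starting cells were hematopoietic stem/progenitor cells (HSPCs) of strain C57Bl/6J, selected as Lin-Sca1+cKit+ cells. Both groups were kept for 7 days in the same serum-free medium with stem cell factor (SCF) at 100 ng/ml, a low dose of Flt3 ligand at 2 ng/ml and penicillin-streptomycin. Malonyl-CoA, the building block of fatty acid synthesis, was added at 100 µM in the Malonyl-CoA group only. RNA came from all progeny of 10000 seeded cells, so each value is an average over whatever cell types the culture held, and a smaller number of cells of one type cannot be told apart from less RNA per cell. The design calls the libraries biological replicates without saying whether each stands for a mouse, a pool or a culture, and p-values therefore measure the spread between these libraries.

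Chemokine receptors are G protein-coupled receptors through which leukocytes sense gradients of small secreted proteins, the chemokines. They act mainly through inhibitory G proteins of the Gi class, phosphoinositide 3-kinase gamma and the exchange factors of Rac, and arrestins end the signal. In bone marrow, Cxcr4 holds stem and progenitor cells near Cxcl12-producing stromal cells, Ccr2 lets monocytes leave for the blood, and Cxcr2 does the same for neutrophils. Atypical receptors such as Ackr3 bind chemokines without the usual G protein signal.

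Gene counts per library were between 17492085 and 21308153 in the Malonyl-CoA group and between 18233714 and 22079844 in the Control group. Levels are given as CPM, counts scaled to a common library size with TMM factors. A library called Malonyl-CoA 4 stood apart from the others on the first principal component of log2 CPM, at 63.3, followed by Control 4 at 25.3, with the other 6 between -30.4 and 0.40, and this component held 48.9% of the variance. In Control 5, the deviation of genes from their mean ran against their GC content (Spearman's rho across genes -0.67), whereas in Malonyl-CoA 1 rho was 0.44. Genes are not independent replicates, so no p is given for these values. Markers of several blood cell types were present. The summed level of 10 neutrophil markers was 12146 to 15911 CPM in Malonyl-CoA and 11687 to 18758 CPM in Control libraries. Most of this sum was Mpo, at 7817 to 11144 CPM in Malonyl-CoA and 6310 to 11880 CPM in Control libraries. Ltf and Camp averaged only 8.15 and 9.66 CPM in Malonyl-CoA, and 12.0 and 17.3 CPM in Control. The sum of 10 stem and progenitor markers was 1159 to 1231 CPM in Malonyl-CoA and 1307 to 1450 CPM in Control libraries. The T-cell marker Cd3e had no read in any library. Of 8 stromal and endothelial markers, Col3a1 and Dcn had no read, whereas Pdgfrb was at 30.03 to 39.7 CPM in Malonyl-CoA and 28.0 to 36.4 CPM in Control libraries, and the list summed to 53.4 to 68.2 CPM in Malonyl-CoA and 42.5 to 51.9 CPM in Control libraries.

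Of the 8 receptors, 7 passed the low-count filter. With edgeR's quasi-likelihood test and Benjamini-Hochberg adjustment over 12696 genes, none of the 7 passed an adjusted p of 0.05, and none of the 12696 genes did (0%). At an unadjusted p of 0.05, 1 of the 7, Cxcr2, was past the threshold, against 1210 or 9.53% of all genes tested. The fitted value was below 0 for 6 of the 7 and above 0 for Cx3cr1, against 46.6% of all genes below 0 and 53.4% above. The median log2 fold change, malonyl-CoA minus control, was -0.26 for the 7 receptors and 0.02 for all genes tested. DESeq2 called 82 genes at the same adjusted threshold and none of the receptors. It gave no adjusted p for 7912 genes, so the 82 are not a share of the 12696, and no share is given.

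**Figure D1:**
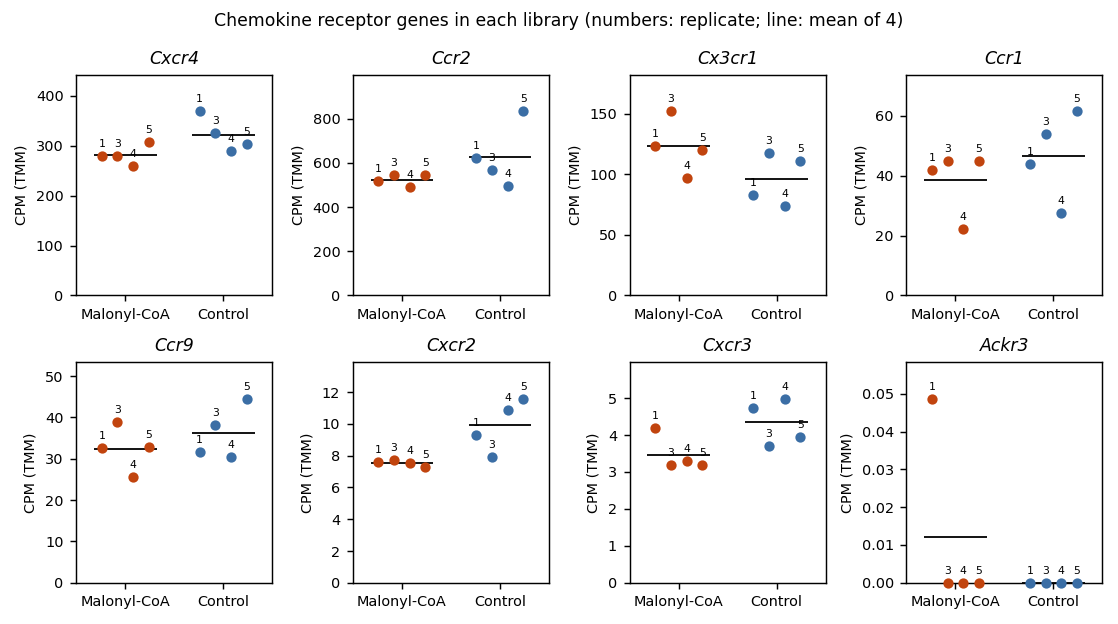
TMM-scaled CPM of the 8 receptor genes in each library, 1 point a library, labelled with its replicate number; the line is the mean of 4 libraries and each panel has its own axis from 0. Cxcr2 is the only one of the 7 tested genes in which all Malonyl-CoA libraries (7.27 to 7.72) lie below all Control libraries (7.91 to 11.6).

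Cxcr4, the receptor for Cxcl12, and Ackr3, which binds and removes the same chemokine, stood at opposite ends of the range of levels per kilobase of exon. Both lie on chromosome 1 in GRCm38, Cxcr4 (ENSMUSG00000045382) on the minus strand at chr1:128588199-128592293 and Ackr3 (ENSMUSG00000044337) on the plus strand at chr1:90203980-90216751. Cxcr4 had 279, 280, 259 and 306 CPM in Malonyl-CoA 1, 3, 4 and 5, against 369, 325, 290 and 304 CPM in Control 1, 3, 4 and 5. The groups overlapped, with Malonyl-CoA 5 above 2 of the Control libraries. The means were 281 ± 19.5 CPM in Malonyl-CoA and 322 ± 34.5 CPM in Control (SD, n = 4 each). Cxcr4 had a log2 fold change of -0.20 (SE 0.11, edgeR adjusted p = 0.524), which was -0.12 without Control 1.

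Ackr3 had 1 read in Malonyl-CoA 1 and none in the other 7 libraries, and was therefore not tested. The level that 3 reads over the whole group would give is 0.0374 CPM in Malonyl-CoA and 0.0380 CPM in Control. The Control group, with no read, could still hold a level below its value. The 1 read in Malonyl-CoA 1 gave a group mean of 0.0122 CPM, which is under the 3-read level. The chemokine itself was also rare: Cxcl12 had 7 reads in all 8 libraries together. The 3-read levels cover counting error only.

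The promoters of this pair are shown because they belong to the receptors with the highest and the lowest level per kilobase of exon of the 8. They are RefSeq windows (GRCm38.p6) from 250 bases before to 50 bases after the annotated start, at chr1:128592250-128592549 on the minus strand for Cxcr4 and chr1:90203730-90204029 on the plus strand for Ackr3. Capitals mark matches on either strand to the TATA motif TATAAA, the GC box CCGCCC and the ETS core GAGGAA, the form that PU.1 binds.
Cxcr4: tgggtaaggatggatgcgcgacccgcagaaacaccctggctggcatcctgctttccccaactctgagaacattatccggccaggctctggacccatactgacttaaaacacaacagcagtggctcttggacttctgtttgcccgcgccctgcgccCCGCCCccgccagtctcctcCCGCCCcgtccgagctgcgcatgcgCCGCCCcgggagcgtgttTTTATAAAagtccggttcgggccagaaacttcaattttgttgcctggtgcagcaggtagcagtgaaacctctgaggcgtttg
Ackr3: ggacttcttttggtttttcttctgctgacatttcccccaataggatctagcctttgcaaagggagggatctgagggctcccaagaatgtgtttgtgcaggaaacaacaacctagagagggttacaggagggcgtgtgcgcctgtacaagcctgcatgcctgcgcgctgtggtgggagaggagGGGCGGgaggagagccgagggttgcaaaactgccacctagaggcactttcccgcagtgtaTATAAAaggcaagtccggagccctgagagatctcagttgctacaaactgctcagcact
The Cxcr4 window held 3 GC boxes and 1 stretch that reads as TATAAA on both strands, counted as 2 overlapping matches. The Ackr3 window held 1 GC box and 1 TATA motif, so the same 2 motifs occurred in both windows. Among all 32851 windows, 13.6% held TATAAA, 35.7% held CCGCCC and 28.3% held GAGGAA. The Cxcr4 window had 20 CpG sites, a number that 75.2% of windows did not exceed, and the Ackr3 window had 8. A match describes the letters of the window and not a bound site.

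Ccr2, the receptor for Ccl2 and Ccl7 that marks classical monocytes and their precursors, had the most reads of the 8, 91746 in all. Its gene (ENSMUSG00000049103) lies at chr9:124101950-124113557 on the plus strand. Ccr2 had 516, 545, 493 and 545 CPM in Malonyl-CoA 1, 3, 4 and 5, against 620, 566, 494 and 833 CPM in Control 1, 3, 4 and 5. The Malonyl-CoA libraries were close together, whereas the Control libraries were spread widely with Control 5 highest, and the groups overlapped. The means were 525 ± 25.4 CPM in Malonyl-CoA and 628 ± 146 CPM in Control (SD, n = 4 each), with a log2 fold change of -0.26 (SE 0.16, edgeR adjusted p = 0.535). Leaving out Control 5 brought the fitted value of Ccr2 to -0.09.

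Cx3cr1, the receptor for the membrane-bound chemokine Cx3cl1 on non-classical monocytes, macrophages and their progenitors, was the one receptor with a positive fitted value. The gene (ENSMUSG00000052336) lies at chr9:119901616-120069879 on the minus strand and shares 78 exonic bases with an antisense gene. Cx3cr1 had 123, 152, 96.8 and 120 CPM in Malonyl-CoA 1, 3, 4 and 5, against 82.9, 117, 73.5 and 110 CPM in Control 1, 3, 4 and 5. The groups overlapped, since Malonyl-CoA 4 lay below Control 3 and Control 5. The means were 123 ± 22.5 CPM in Malonyl-CoA and 96.1 ± 21.2 CPM in Control (SD, n = 4 each), a 1.28-fold ratio by the fit. The log2 fold change of Cx3cr1 was 0.36 (SE 0.19, edgeR adjusted p = 0.515), a size that 23.4% of all genes tested reached in either direction.

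The promoter windows of Cx3cr1 and Cxcr2 are shown for the receptors with the highest and the lowest fold change, in the same format and with the same 3 motifs in capitals. They lie at chr9:120068247-120068546 on the minus strand for Cx3cr1 and at chr1:74153744-74154043 on the plus strand for Cxcr2.
Cx3cr1: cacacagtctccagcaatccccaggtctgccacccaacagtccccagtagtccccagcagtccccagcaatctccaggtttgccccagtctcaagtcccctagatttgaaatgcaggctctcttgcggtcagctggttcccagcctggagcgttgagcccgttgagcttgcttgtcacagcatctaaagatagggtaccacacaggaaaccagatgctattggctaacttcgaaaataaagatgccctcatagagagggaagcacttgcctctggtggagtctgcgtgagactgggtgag
Cxcr2: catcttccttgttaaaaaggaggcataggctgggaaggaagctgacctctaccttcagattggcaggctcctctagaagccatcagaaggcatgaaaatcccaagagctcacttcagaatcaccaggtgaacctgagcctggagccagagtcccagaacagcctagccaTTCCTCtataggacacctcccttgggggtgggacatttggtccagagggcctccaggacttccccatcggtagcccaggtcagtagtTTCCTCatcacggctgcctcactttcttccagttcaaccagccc
The Cxcr2 window held 2 matches to GAGGAA, both on the opposite strand and written here as TTCCTC. The Cx3cr1 window held none of the 3 motifs, and neither did those of Ccr2 and Ccr9. The windows of Ccr1 and Cxcr3 held 1 GAGGAA each. No match says only that these letters are not in the window.

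Set against Ccr2 in the same library, Cx3cr1 had a CPM ratio of 0.239, 0.279, 0.197 and 0.220 in Malonyl-CoA 1, 3, 4 and 5, against 0.134, 0.208, 0.149 and 0.133 in Control 1, 3, 4 and 5. Malonyl-CoA 4 lay just below Control 3, so the groups overlapped by this pair. This ratio was formed after the levels had been seen and was not tested. Of 9 markers of monocytes and macrophages tested, 7 had positive and 2 negative fold changes, their median was 0.28 on the log2 scale, and none passed the adjusted threshold with edgeR. DESeq2, for which no share of all genes is given, called 3 of them higher, among 82 genes in all. They were Marco (adjusted p = 2.51e-09), Csf1r (adjusted p = 0.0132) and Fcgr1 (adjusted p = 0.0463). In other marker lists, DESeq2 called the dendritic cell marker Fscn1 higher (adjusted p = 0.0218) and the stem and progenitor marker Cd34 lower (adjusted p = 0.0449). Cd34 had the highest mean level of the 10 stem and progenitor markers, 454 CPM in Malonyl-CoA and 598 CPM in Control. Of these 10, 4 had positive fold changes, among them Procr (1.14) and Ly6a (0.94), and 6 negative ones. Their median was -0.025 on the log2 scale. The summed level of the 10 listed monocyte and macrophage markers was 3299 to 4332 CPM in Malonyl-CoA and 2947 to 4371 CPM in Control libraries. Csf1r, through which the growth factor Csf1 sustains monocytes and macrophages, averaged 315 ± 27.8 CPM in Malonyl-CoA and 219 ± 16.4 CPM in Control (SD, n = 4 each). The part of these cells in the Cx3cr1 values was not tested.

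**Figure D2:**
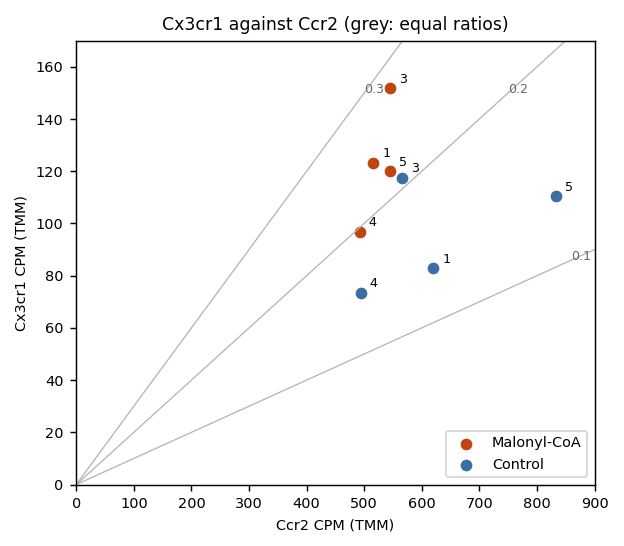
Cx3cr1 against Ccr2, both in TMM-scaled CPM, 1 point a library labelled with its replicate number; grey lines join points of equal ratio. The Malonyl-CoA libraries have ratios of 0.197 to 0.279 and the Control libraries 0.133 to 0.208.

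Ccr1, a receptor for inflammatory chemokines such as Ccl3 and Ccl5, lies at chr9:123962124-123968692 on the minus strand (ENSMUSG00000025804). Ccr1 had 41.9, 44.9, 22.1 and 44.8 CPM in Malonyl-CoA 1, 3, 4 and 5, against 43.8, 53.9, 27.4 and 61.5 CPM in Control 1, 3, 4 and 5. The fourth library was lowest in both groups, and the groups overlapped. Ccr1 had a log2 fold change of -0.28 (SE 0.28, edgeR adjusted p = 0.665). It was -0.09 without Malonyl-CoA 4, -0.12 without Control 5 and -0.47 without Control 4. Without libraries 1, 3, 4 or 5 of both groups it was -0.35, -0.29, -0.28 and -0.19. It was 0.07 without Malonyl-CoA 4 and Control 5, the lowest Malonyl-CoA and the highest Control library, a pair chosen after seeing the data.

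Ccr9, which guides cells to the thymus and gut by Ccl25 and is also found on plasmacytoid dendritic cells, lies at chr9:123678439-123784330 on the plus strand (ENSMUSG00000029530). An antisense gene shares 1932 of its 10260 exonic bases and a gene on the same strand shares 269, so its count is uncertain. Ccr9 had 32.6, 38.8, 25.5 and 32.9 CPM in Malonyl-CoA 1, 3, 4 and 5, against 31.5, 38.2, 30.3 and 44.6 CPM in Control 1, 3, 4 and 5. The groups overlapped along most of their range. The log2 fold change of Ccr9 was -0.16 (SE 0.17, edgeR adjusted p = 0.690), and it was -0.04 without Control 5, -0.06 without Malonyl-CoA 4 and -0.25 without Malonyl-CoA 3. Without libraries 1, 3, 4 or 5 of both groups it was -0.22, -0.23, -0.14 and -0.04. It was 0.06 without Malonyl-CoA 4 and Control 5, again the lowest Malonyl-CoA and the highest Control library.

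Cxcr2, the neutrophil receptor for Cxcl1, Cxcl2, Cxcl5 and Ppbp, lies at chr1:74153989-74161246 on the plus strand (ENSMUSG00000026180). Cxcr2 had 7.60, 7.72, 7.55 and 7.27 CPM in Malonyl-CoA 1, 3, 4 and 5, against 9.30, 7.91, 10.9 and 11.6 CPM in Control 1, 3, 4 and 5. Every Malonyl-CoA library was below every Control library, by a narrow margin between Malonyl-CoA 3 and Control 3. Groups that do not overlap were found for 6.14% of all genes tested. The means were 7.53 ± 0.19 CPM in Malonyl-CoA and 9.91 ± 1.65 CPM in Control (SD, n = 4 each). The log2 fold change of Cxcr2 was -0.40 (SE 0.16), with an unadjusted p of 0.0301 and an edgeR adjusted p of 0.507.

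Of 10 neutrophil markers tested, 9 had negative fold changes, against 46.6% of all genes tested. Of the same 10, 4 were lower at an unadjusted p of 0.05, against 4.1% of all genes. Their median was -0.46 on the log2 scale, and none passed the adjusted threshold with edgeR or DESeq2. S100a8, a calcium-binding protein of neutrophils, was one of the 4, at 386, 320, 196 and 507 CPM in Malonyl-CoA 1, 3, 4 and 5, against 586, 659, 380 and 1307 CPM in Control 1, 3, 4 and 5. Its log2 fold change was -1.06 (SE 0.39), and -0.62 without Control 5. Among the other markers, Csf3r was positive at 0.39, and Mpo and Prtn3 were near 0 at -0.03 each. The part of neutrophil content in the Cxcr2 values was not tested.

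Cxcr3, the receptor for the interferon-induced chemokines Cxcl9, Cxcl10 and Cxcl11 on T and NK cells and some dendritic cells, lies on the X chromosome at chrX:101731535-101734269 on the minus strand (ENSMUSG00000050232). Cxcr3 had 4.19, 3.18, 3.30 and 3.19 CPM in Malonyl-CoA 1, 3, 4 and 5, against 4.73, 3.71, 4.98 and 3.94 CPM in Control 1, 3, 4 and 5. Malonyl-CoA 1 was within the Control range, and the other 3 Malonyl-CoA libraries lay below it. Cxcr3 had a log2 fold change of -0.32 (SE 0.18, edgeR adjusted p = 0.520). The summed level of 10 T and NK markers was 133 to 203 CPM in Malonyl-CoA and 189 to 282 CPM in Control libraries, with Cd3e at 0 throughout. Most of this sum was Nkg7, a granule gene of NK and T cells that myeloid progenitors can also express, at 120 to 189 CPM in Malonyl-CoA and 180 to 270 CPM in Control libraries. Of the 5 markers tested, 3 had positive fold changes, with a median of 0.12 on the log2 scale. The part of these cells in the Cxcr3 values was not tested.

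**Figure D3:**
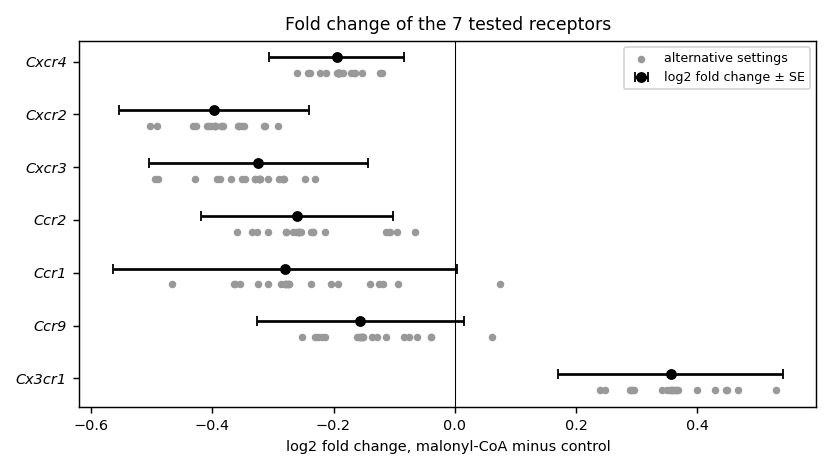
Log2 fold change (malonyl-CoA minus control) of the 7 tested receptors from edgeR, with bars of 1 SE; grey points are the same value under each alternative setting or with libraries left out. Cx3cr1 lies right of 0 under every setting drawn, and Ccr1 and Ccr9 cross 0 in 1 setting each, without Control 5 and Malonyl-CoA 4.

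Of the 7 tested receptors, 5 (Cxcr4, Ccr2, Cx3cr1, Ccr1 and Ccr9) were lowest in library 4 of both groups, the 2 libraries with the highest values on the first principal component. The receptors Ccr2, Ccr1, Ccr9 and Cxcr2, 4 of the 7, had their highest Control value in Control 5. The share of all genes with these patterns is not given here, so the counts do not set the receptors apart from other genes. The exons of Ccr1 and Ccr2 were the poorest in GC of the 8, at 39.1% and 39.4%. With a correction for GC content in each library, the log2 fold change was -0.12 for Ccr1, -0.11 for Ccr2, -0.08 for Ccr9 and -0.49 for Cxcr3, and the other 3 tested receptors moved less than 1.5-fold.

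Compared per kilobase of exon, the order of mean levels was the same in both groups. Cxcr4 led with 155 CPM per kb in Malonyl-CoA and 178 in Control, followed by Ccr2 with 77.6 CPM per kb in Malonyl-CoA and 93.0 in Control. Cx3cr1 came next with 27.3 CPM per kb in Malonyl-CoA and 21.3 in Control, and then Ccr1 with 13.6 in Malonyl-CoA and 16.5 in Control. In Malonyl-CoA these 4 did not overlap between libraries, whereas in Control the ranges of Cx3cr1 and Ccr1 did. Ccr9 had 3.17 CPM per kb in Malonyl-CoA and 3.52 in Control, Cxcr2 had 2.47 in Malonyl-CoA and 3.25 in Control, and Cxcr3 had 2.00 in Malonyl-CoA and 2.51 in Control. Neighbours among these 3 overlapped in both groups. The level of Ccr9 depends on the length used: by its longest transcript it was 6.25 CPM per kb in Malonyl-CoA and 6.96 in Control, still between Ccr1 and Cxcr2.

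Over the 23 chemokine receptor genes listed here, Cxcr4 made up 52.8% of the summed level per kb in Malonyl-CoA and 54.8% in Control, and Ccr2 made up 26.4% in Malonyl-CoA and 28.3% in Control. The share of Cx3cr1 was 9.21 ± 1.17% in Malonyl-CoA and 6.52 ± 1.14% in Control (SD, n = 4 each). Its Malonyl-CoA libraries, 8.33% to 10.9%, did not overlap its Control libraries, 5.31% to 7.93%. The CPM of Cx3cr1 did overlap, at 96.8 to 152 in Malonyl-CoA and 73.5 to 117 in Control libraries. Most of the sum was Cxcr4 and Ccr2, both with negative fitted values. These shares depend on the lengths used and on the other receptors, and were given no test. Of the 23, 6 had under 10 reads in all libraries together.

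**Figure D4:**
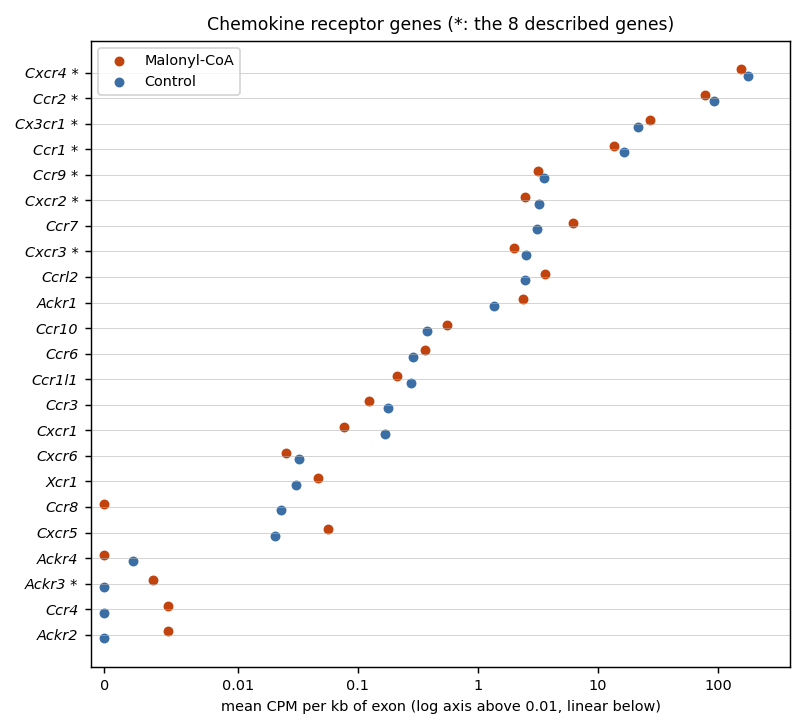
Mean CPM per kb of exon of 23 chemokine receptor genes in Malonyl-CoA and Control libraries (n = 4 each), on an axis that is logarithmic above 0.01 and linear below. Cxcr4 (155 in Malonyl-CoA, 178 in Control) and Ccr2 (77.6 in Malonyl-CoA, 93.0 in Control) stand highest, and Ackr3 is among those with almost no reads.

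Of 15 other chemokine receptors listed, 5 were tested, all 5 with positive fold changes, against 53.4% of all genes tested. None passed the adjusted threshold (0% of all genes). Their median log2 fold change was 0.54. Ccr6 and Ccr10, among these 5, had only 120 and 124 reads in all libraries together, with SEs of 0.35 and 0.50. Without Malonyl-CoA 3, Ccr6 was at 0.02. Ccr7, which takes mature dendritic cells and lymphocytes to lymph nodes, had 12.4, 16.1, 4.91 and 15.3 CPM in Malonyl-CoA 1, 3, 4 and 5, against 5.76, 10.2, 3.59 and 5.16 CPM in Control 1, 3, 4 and 5. Malonyl-CoA 4 lay within the Control range and the other 3 above it, and the log2 fold change of Ccr7 was 0.98 (SE 0.40, edgeR adjusted p = 0.515). Ackr1, an atypical receptor that binds many chemokines, had a log2 fold change of 0.79 (SE 0.36). Ccrl2, an atypical receptor that presents chemerin, had one of 0.54 (SE 0.39), which was 0.32 without Control 4. Beside Ccr7, 8 dendritic cell markers were tested, 7 with positive fold changes and a median of 0.64, and their summed level was 1259 to 1834 CPM in Malonyl-CoA and 1079 to 1501 CPM in Control libraries; their part in it was not tested.

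Of the 24 listed ligands of the 8 receptors, 16 were tested, 11 with positive and 5 with negative fold changes, a median log2 fold change of 0.36 and none past the adjusted threshold with edgeR. Ccl8 and Ccl11 had no read in any library. Ccl5, a ligand of Ccr1, had 22.5, 23.1, 12.3 and 28.6 CPM in Malonyl-CoA 1, 3, 4 and 5, against 5.65, 10.6, 5.45 and 13.7 CPM in Control 1, 3, 4 and 5. The groups overlapped only by Malonyl-CoA 4 and Control 5, and the log2 fold change of Ccl5 was 1.28 (SE 0.34, edgeR adjusted p = 0.368). DESeq2 gave Ccl5 an adjusted p of 0.0443.

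Cxcl10, an interferon-induced ligand of Cxcr3, averaged 56.4 ± 18.6 CPM in Malonyl-CoA and 34.1 ± 11.3 CPM in Control (SD, n = 4 each), with a log2 fold change of 0.73 (SE 0.31). Cxcl9, a second interferon-induced ligand of Cxcr3, had a log2 fold change of 1.09 (SE 0.61), which was 0.55 without Malonyl-CoA 1. Ppbp, a platelet ligand of Cxcr2, averaged 227 ± 44.7 CPM in Malonyl-CoA and 296 ± 58.9 CPM in Control (SD, n = 4 each). Ccl9, a myeloid ligand of Ccr1 in mice, averaged 392 ± 103 CPM in Malonyl-CoA and 511 ± 145 CPM in Control (SD, n = 4 each). Cx3cl1, the ligand of Cx3cr1, was near 1 CPM, at 1.24 CPM in Malonyl-CoA and 0.999 CPM in Control.

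Of 29 tested signalling genes downstream of the receptors, 18 had positive and 11 negative fold changes, with a median log2 fold change of 0.18. Of the 29, 3 were higher and 1 lower at an unadjusted p of 0.05, against 5.43% and 4.1% of all genes tested. Malonyl-CoA libraries lay wholly above Control for 3 of the 29 (Pik3r5, Arrb2 and Gnai2) and wholly below for 1 (Gng2). Over all genes tested, 6.14% had no overlap in either direction. Pik3r5, the p101 subunit that couples phosphoinositide 3-kinase gamma to G protein beta-gamma, had 24.8, 29.3, 30.7 and 23.6 CPM in Malonyl-CoA 1, 3, 4 and 5, against 10.7, 16.7, 17.8 and 13.2 CPM in Control 1, 3, 4 and 5. Every Malonyl-CoA library lay above every Control library, and the log2 fold change of Pik3r5 was 0.89 (SE 0.18, edgeR adjusted p = 0.352; DESeq2 adjusted p = 0.00722). Arrb2, an arrestin that uncouples and internalises receptors, had a log2 fold change of 0.32 (SE 0.11) without overlap, and of 0.11 after correction for GC content. Rgs18, a regulator that speeds up the switching off of Gi proteins, averaged 194 ± 34.8 CPM in Malonyl-CoA and 282 ± 77.2 CPM in Control (SD, n = 4 each). The groups overlapped, and Rgs18 had a log2 fold change of -0.54 (SE 0.20; edgeR adjusted p = 0.502), which was -0.34 without Control 5 and -0.31 after correction for GC content.

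**Figure D5:**
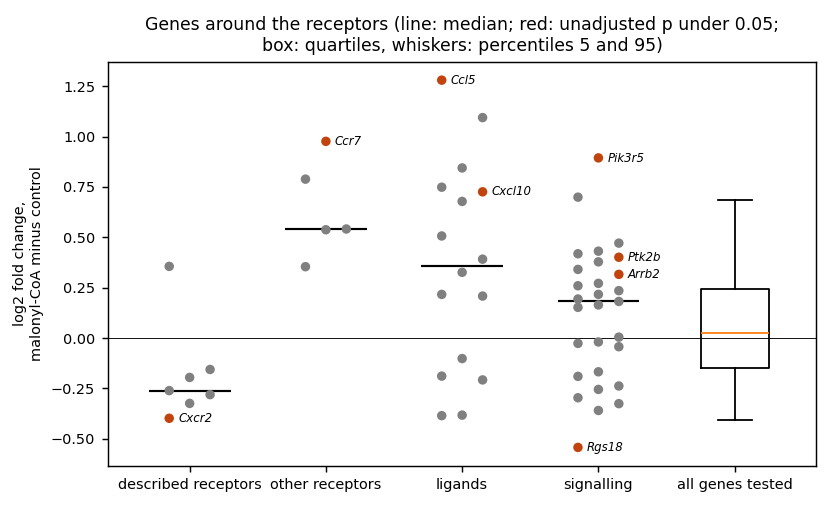
Log2 fold change (malonyl-CoA minus control) of the 7 tested receptors, 5 tested other receptors, their 16 tested ligands and 29 signalling genes, 1 point a gene, with a line at each median; red points are past an unadjusted p of 0.05, and the box is all 12696 genes tested. The medians are -0.26, 0.54, 0.36 and 0.18, against 0.02 for all genes.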

How the data were processed

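RNA of 8 libraries, 4 Malonyl-CoA and 4 Control, was prepared with a stranded total RNA kit from 350 ng of total RNA, per the labels' protocols. The authors deposited 1 file of raw, unnormalized counts per Ensembl gene for each library. The submitters' processing notes name the tools cutadapt 1.8, STAR 2.5.2b and HTSeq 0.6.1 and the build GRCm38. Which annotation release and which strand option HTSeq used is not given in the sources used here, so overlapping genes are uncertain. Classes that name no gene were left out; of all tallied reads, 38.2% to 51.1% mapped to several positions, 0.715% to 0.891% were ambiguous and 1.11% to 2.94% fell in no gene. Of 48709 identifiers, 48349 matched GENCODE M21 (GRCm38), which gave symbols, coordinates and exon lengths. Promoter sequences are from RefSeq (GRCm38.p6), and all 8 receptors matched.

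Groups were taken from sample titles. Tests used edgeR 4.0.16 in R 4.3.3: filterByExpr (minimum count 10, minimum total 15), TMM factors, robust glmQLFit and a two-sided glmQLFTest over all 8 libraries without covariates. P-values were adjusted by Benjamini-Hochberg over 12696 genes, with a threshold of 0.05. Each SE is the size of the log2 fold change divided by the square root of F. Levels per kb divide CPM by the union of exons. No 2 libraries agreed within counting noise. Library totals of 17492085 to 22079844 counts leave genes near 1 CPM with few reads. The procedure was also run on simulated data, with settings and outcome not reported here. Alternatives were DESeq2 1.42.0, limma-voom (limma 3.58.1), other scalings and filters, a replicate block, a per-library GC correction and leaving out libraries.

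The receptors, the lists of ligands, signalling genes and markers, and the rule for naming were chosen with earlier results of these data known. The rule names all 8 receptors, the 3 genes with the smallest p of each list, the ligands of each receptor and the 3 genes most like each receptor across libraries; of these, the text describes those that bear on a result, and some genes are not reported here.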

Additional observations from a re-analysis of the deposited data

Results flagged for a closer look

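In 2 of the receptor groups of 4 libraries, 1 library lay far from the other 3. Ccr1 in Malonyl-CoA 4 was at 22.1 CPM, with the other Malonyl-CoA libraries at 41.9 to 44.9 CPM, and the gap was 0.868 of the range of the group, above Dixon's critical value of 0.829. Cxcr3 in Malonyl-CoA 1 was at 4.19 CPM, with the other Malonyl-CoA libraries at 3.18 to 3.30 CPM, and the gap was 0.873 of the range. Chance flags about 1 in 20 such groups. Malonyl-CoA 4 is also the library that stood apart on the first principal component.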

How the results depend on the processing

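None of the 8 receptors was called under any of the 22 alternatives, and Cx3cr1 kept a positive log2 fold change (0.24 to 0.53) while Cxcr4 (-0.26 to -0.12), Ccr2 (-0.36 to -0.07), Cxcr2 (-0.50 to -0.29) and Cxcr3 (-0.49 to -0.23) kept a negative one. With libraries left out, Ccr1 ranged from -0.47 to 0.075 and Ccr9 from -0.25 to 0.061, the positive ends without Control 5 and Malonyl-CoA 4 together, a choice made after seeing the data. The receptors past an unadjusted p of 0.05 were 1 as reported (Cxcr2), 0 with library size only and 2 with GC correction (Cxcr2 and Cxcr3). They were 3 with the replicate block (Cx3cr1, Ccr1 and Cxcr2). With libraries left out they were 0 to 2, with 0 without Control 5 or without Malonyl-CoA 1, 3 or 5. The share of all genes past this p is given here for the reported fit only (9.53%). The counts under the alternatives therefore have no share to be set against. The number of genes called was 0 with edgeR as described, 82 with DESeq2, 172 with the replicate block (smallest adjusted p 0.0463), 6 with the block and GC correction, and 1 without a low-count filter (Marco, a macrophage scavenger receptor). The replicate numbers did not meet the criterion for pairing: deviations of same-numbered libraries correlated at 0.43, 0.43, 0.75 and 0.052, the last under 0.1. Malonyl-CoA 1, 3 and 4 each correlated best with the Control library of their own number, and Malonyl-CoA 5 did not. Whether the numbers pair the samples is therefore not settled. At every number, Cx3cr1 was higher and Ccr1, Ccr2, Cxcr2 and Cxcr3 lower in Malonyl-CoA, whereas Cxcr4 and Ccr9 differed in direction between numbers. Some of these differences were very small. At number 4, Ccr2 was at 493 CPM in Malonyl-CoA and 494 CPM in Control. At number 3, Cxcr2 was at 7.72 CPM in Malonyl-CoA and 7.91 CPM in Control. The share of all genes with the same direction at every number is not given here, so this is a description only. The SE with the block was 0.10 for Ccr1 and 0.09 for Cx3cr1, against 0.28 and 0.19 without it. With the block, Ccl5 (adjusted p 0.0464), Pik3r5 (0.0464), Prex1 (0.0480), Csf1r (0.0473) and S100a8 (0.0464) were among the calls, and none of these with the block and GC correction. Of the 5 other receptors, 16 ligands and 29 signalling genes tested, 7 were past an unadjusted p of 0.05 with edgeR as described. The number was 3 with GC correction, 11 without a low-count filter, 26 with the replicate block and 18 with the block and GC correction. It was 4 to 11 with 1 library left out, and 2, 4 and 16 without libraries 1, 3 and 4 of both groups. Shares of all genes under these alternatives are likewise not given. Signs also turned, without a call, for Ccl25 (0.054 with GC correction, 0.084 with the block too) and Mif (-0.22 and -0.24 with the same). Leaving out library 3 of both put Ccr6 at -0.031 and Ccl6 at 0.0046. With libraries left out, the ranges of the genes that turned were -0.03 to 0.66 for Ccr6, -0.17 to 0.74 for Ccl4, -0.53 to 0.38 for Ccl6, -0.30 to 0.26 for Ccl25 and -0.42 to 0.15 for Pf4. Leaving out Malonyl-CoA 4 put Ccl25 at -0.28, and Ccl25 was at 0.26 without library 5 of both groups. The cause of these turns was not tested. Depth limits Ackr3 and the rarest ligands.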

Other observations

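Across the 8 libraries, each of the 7 tested receptors was compared with 11728 other genes by Pearson's r of log2 CPM, as a description that shares depth and library composition. The genes most like Cx3cr1 were Cybb, a subunit of the phagocyte NADPH oxidase (0.99), the nuclear receptor Nr4a3 (0.98) and D13Ertd608e (0.98). Those most like Ccr1 included Rtn4 and Mapk9 (0.99 each), and those most like Ccr2 were Fam92a (0.99), Ints8 (0.98) and N4bp2l2 (0.98). Ccr9 was most like Stap1 (0.98), Zdhhc15 (0.96) and Rnase6 (0.96), Cxcr4 most like Stradb (0.98), Pole2 (0.98) and Kdelr1 (0.97), Cxcr2 most like Kctd1 (0.96), Hdac9 (0.95) and Cyp2j6 (0.94), and Cxcr3 most like Slc4a8 (0.95), Fgl2 (0.94) and Endod1 (0.91). No p is given, since these are the highest of many values.

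Of the 23 chemokine receptor genes listed, 14 lie on chromosome 9, and 4 of those are Ccr1, Ccr2, Ccr9 and Cx3cr1. Of their neighbours, Ccr1l1, 8551 bp from Ccr1, was at 0.0974 to 0.342 CPM in Malonyl-CoA and 0.228 to 0.423 CPM in Control libraries. Cxcr6, 22145 bp from Ccr9, had 9 reads in all. Markers of mast cells, basophils and eosinophils had negative fold changes in 7 of 10, against 46.6% of all genes tested, with no call. The genes Fcer1a, Cpa3 and Mcpt8, 3 of the 10, were lower at an unadjusted p of 0.05 (4.1% of all genes) and without overlap between groups (6.14% of all genes in either direction).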
